A study of Mus musculus with 10 samples.

Results

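The TRIM (tripartite motif) family comprised 43 of the 13171 genes tested in mouse bone marrow derived macrophages, which are primary macrophages grown from marrow cells. They are the genes whose official symbol is Trim followed by a number and whose deposited value reached 10 in at least 2 of the 10 libraries. The table held 68 such symbols. One of them, Trim30e-ps1, is a pseudogene and was left out, and 24 of the other 67 did not reach the threshold, 8 of these being listed at 0 in every library. Just inside the threshold lay Trim34b with 2 libraries at 10 or more and a highest value of 11, and Trim9 and Trim43b with 3 libraries each and highest values of 14 and 17. Just outside it lay Trim69, Trim17 and Trim66, with 1 library each and highest values of 15, 10 and 10. Trim9, Trim34b and Trim43b passed only through groups in which they are high, as did Trim7, with 6 libraries and a highest value of 18. They are part of the counts below, but their calls support nothing, since passing the threshold tied them to a difference.

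Polyadenylated RNA of C57BL/6 cells was sequenced in 5 groups of 2 libraries. Cells labelled wild type (WT) were untreated or were collected after 6 h in a control medium to which 5% fetal bovine serum (FBS) and 2% bovine serum albumin (BSA) had been added, and cells labelled Tlr4 -/- (KO), a label for a knockout of the gene of the lipopolysaccharide receptor TLR4, were kept in the same ways. The fifth group was KO cells given Poly(I:C) as a pre-treatment, for a time that the labels do not state. Poly(I:C) is a man-made RNA duplex that TLR3 and the RIG-I-like receptors sense. Wild-type cells with Poly(I:C) were not analysed here. The labels give no age, sex or number of mice, and do not say whether the replicates were separate cultures or separate mice. The p-values therefore rest on a spread between libraries that may be purely technical. They state neither the medium nor the time of the untreated cells, nor whether the Poly(I:C) medium held serum and albumin.

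TRIM proteins carry a RING finger, which in most of them recruits a ubiquitin-charged E2 enzyme and makes the protein an E3 ubiquitin ligase, followed by B-boxes and a coiled coil through which they assemble. The domain at the carboxyl end sets the subfamily. PRY-SPRY domains bind viral or host proteins, the bromodomains of the TIF1 group bind chromatin, NHL repeats bind RNA or protein, and COS boxes bind microtubules. Many members are known as interferon-induced antiviral proteins or as regulators of innate sensing in macrophages, and others act in transcription, the cytoskeleton or development.

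Levels are given as CPM, a gene's share of the scaled total of its library, and differences as log2 of (CPM + 0.1) with a standard error (SE). A gene was called changed at a Benjamini-Hochberg adjusted p under 0.05 in limma over all 13171 genes. Deposited totals were 25.2 to 26.7 M units in the untreated and KO control libraries, 41.1 and 42.0 M in the WT control pair and 47.5 and 51.7 M with Poly(I:C), and the scaling factors ran the other way, from 1.16 to 1.23 in the former to 0.821 and 0.855 and to 0.690 and 0.718. Tlr4 itself stood at 60.2 and 68.8 CPM in WT untreated, 44.3 and 44.9 in KO untreated, 32.2 and 38.6 in WT control, 30.8 and 34.6 in KO control and 47.9 and 64.7 in KO Poly(I:C). The Tlr4 RNA signal was thus not lost under the KO label (log2 difference of -0.11, SE 0.14, adjusted p = 0.52 in limma for KO against WT control), which does not check the label, because no source used here gives the deleted part of the gene. Directions between genotypes below therefore refer to the libraries labelled KO and WT. All 10 macrophage markers were tested, and their summed level lay between 23819 and 28880 CPM in every library. The 8 neutrophil markers summed to 9.53 to 17.3 CPM in WT untreated, 10.1 to 13.0 in KO untreated, 17.1 to 28.6 in WT control, 5.99 to 6.82 in KO control and 22.4 to 25.2 in KO Poly(I:C). The 4 stromal markers summed to 3.54 to 5.64, 3.01 to 3.17, 15.0 to 18.9, 4.32 to 5.57 and 12.7 to 13.9 CPM in the same order of groups. B cell, T and NK cell, dendritic cell and mast cell markers each summed to at most 0.870 CPM in any library, with Cd3e, Ncr1, Mcpt4, Mcpt8 and Cpa3 at 0. The totals, factors and the neutrophil and stromal sums move with the changes described below, and their part in them was not tested. In bulk RNA, fewer cells of a type and less RNA per cell cannot be told apart.

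The promoter sequences that bear on the description are those of the Trim5, Trim6, Trim12, Trim30 and Trim34 paralogues, related genes lying side by side on chromosome 7. They were read because some of these neighbours changed steeply and some did not. Only some of them are close copies of one another. Below are the 250 bases before the start site of Trim12c (chr7:104353350-104353599), Trim5 (chr7:104288107-104288356), Trim30a (chr7:104465194-104465443) and Trim30d (chr7:104507850-104508099), all on the minus strand, and 80 bases of the Trim26 promoter on chromosome 17 (chr17:36836956-36837035, plus strand). They are RefSeq sequences of GRCm38.p6, written 5′ to 3′ in the direction of the gene. Capitals mark matches, on either strand, to GAAA followed by any 2 bases and GAAA, the core of the interferon-stimulated response element (ISRE).
Trim12c: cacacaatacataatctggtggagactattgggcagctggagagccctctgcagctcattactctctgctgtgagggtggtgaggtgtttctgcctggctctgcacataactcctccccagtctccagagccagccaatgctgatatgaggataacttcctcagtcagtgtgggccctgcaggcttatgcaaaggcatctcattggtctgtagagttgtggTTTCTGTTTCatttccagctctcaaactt
Trim5: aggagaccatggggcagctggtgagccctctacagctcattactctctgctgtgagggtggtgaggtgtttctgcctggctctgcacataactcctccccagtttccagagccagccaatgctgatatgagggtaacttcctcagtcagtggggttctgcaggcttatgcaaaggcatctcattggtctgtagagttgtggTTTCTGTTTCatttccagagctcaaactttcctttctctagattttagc
Trim30a: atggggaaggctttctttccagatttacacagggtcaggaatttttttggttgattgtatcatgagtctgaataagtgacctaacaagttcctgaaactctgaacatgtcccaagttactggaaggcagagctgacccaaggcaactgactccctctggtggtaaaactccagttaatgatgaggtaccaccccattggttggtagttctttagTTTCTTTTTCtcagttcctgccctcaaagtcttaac
Trim30d: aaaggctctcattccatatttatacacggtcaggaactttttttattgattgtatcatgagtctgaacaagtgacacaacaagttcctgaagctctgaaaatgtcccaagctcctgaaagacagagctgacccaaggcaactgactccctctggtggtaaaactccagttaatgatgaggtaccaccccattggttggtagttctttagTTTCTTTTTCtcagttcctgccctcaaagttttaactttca
Trim26: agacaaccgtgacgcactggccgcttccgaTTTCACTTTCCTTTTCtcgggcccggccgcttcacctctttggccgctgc

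The Trim12c and Trim5 stretches were identical at 219 of 250 aligned bases (87.6%), and both hold the same 10 letters, TTTCTGTTTC, at positions -29 to -20 and -49 to -40 from the start site. Trim30a and Trim30d were identical at 227 of 250 (90.8%), with TTTCTTTTTC at -36 to -27 and at -41 to -32. In Trim26 there are 2 matches that overlap, at -160 to -151 and -154 to -145. A window of 300 bases, 250 before the start and 50 after it, was at hand for 33 of the 43 members (none for Trim3, Trim8, Trim11, Trim14, Trim16, Trim33, Trim35, Trim36, Trim43b and Trim65). An ISRE-like match lay in the windows of 9 of the 33, compared with 3.99% of all 27025 genes in the promoter table (1079 genes). Trim12a and Trim34a hold theirs at 11 to 20 after the start, and Trim21 holds 2 overlapping ones, GAAACTGAAA and GAAAGTGAAA, at 14 to 29. By the calls for WT cells in control medium, matches lay in 7 of 12 members that rose (Trim12a, Trim12c, Trim21, Trim26, Trim30a, Trim30d and Trim34a), in 1 of 11 that fell (Trim2, in 1 of its windows) and in 1 of 10 that were not called (Trim5). Of these, Trim12a, Trim12c, Trim30a, Trim30d, Trim34a and Trim5 are neighbouring paralogues. Some share much of their upstream stretch (80.0% for Trim12a and Trim12c, besides the pairs above), so these counts are not of independent genes. No match was found in the windows of Trim30b, Trim30c, Trim13, Trim25 or Trim56, which also rose. A STAT-type GAS-like motif, TTCNNNGAA, was found in Trim30c, Trim45 and Trim46, or 3 of 33, against 9.55% of all genes, and a kappaB-like motif, GGGA followed by any base and TTTCC, in 0 of 33 against 0.466%. Both strands were read for each motif, and matches are a description of letters in a window.

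In WT cells the family split in control medium. Against WT untreated cells 16 of the 43 members rose, 12 fell and 15 were not called, or 37.2% up and 27.9% down, while 32.8% of all genes were called higher and 33.1% lower. The shares of the family were thus near those of all genes, and the median difference was 0.07 for the members and -0.01 for all genes. By subfamily, of the 10 chromosome 7 paralogues 7 rose, 0 fell and 3 were not called, with a median of 1.52, and of the other 16 PRY-SPRY members 6 rose and 4 fell. Among the 3 TIF1 members 0 rose and 2 fell, and among the 3 NHL members 0 rose and 2 fell. With libraries scaled by their totals alone, the split over the family was 15 higher and 24 lower, and the median of all genes moved to -0.52, so every change is relative to the scaling used.

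**Figure D1:**
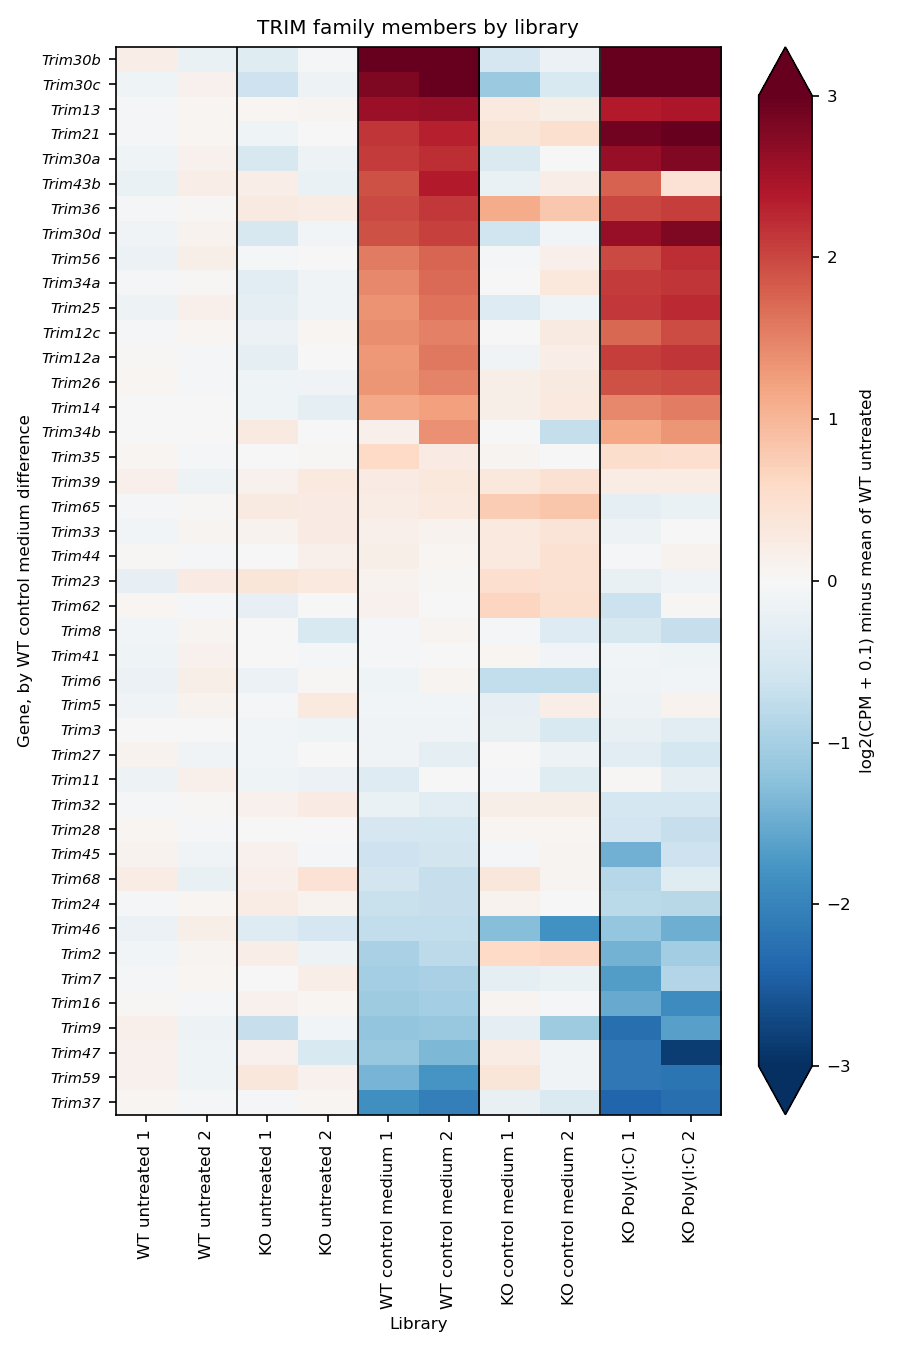
The heat map shows each of the 43 members in each of the 10 libraries as log2(CPM + 0.1) minus the mean of that gene in WT untreated cells, with the colour scale ending at -3 and 3. The 16 members that rose in WT control are higher in both WT control and both Poly(I:C) libraries, and most members stay near 0 in the KO untreated and KO control libraries.

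The chromosome 7 cluster lies between positions 104218793 and 104507849 (GRCm38) in the order Trim6, Trim34a, Trim5, Trim12a, Trim34b, Trim12c, Trim30b, Trim30c, Trim30a and Trim30d. Trim30a, known as a brake on Toll-like receptor signalling to NF-kB, stood at 159 and 189 CPM in WT untreated, 125 and 156 in KO untreated, 747 and 806 in WT control, 129 and 171 in KO control, and 1060 and 1195 in KO Poly(I:C). The WT control and Poly(I:C) libraries lay above all 6 others, among which the KO untreated pair lay below the WT untreated one. The difference between WT control (776 ± 41.7, SD, n = 2) and WT untreated (174 ± 20.9) was 2.16 (SE 0.15, adjusted p = 8.2e-07 in limma). Its neighbour Trim30d, with which it shares the promoter stretch above, gave 54.9 and 64.2 CPM in WT untreated, 42.4 and 55.9 in KO untreated, 224 and 245 in WT control, 38.9 and 55.9 in KO control, and 361 and 417 in KO Poly(I:C). Again the WT control and Poly(I:C) libraries lay above all others, and the WT difference of Trim30d was 1.98 (SE 0.18, adjusted p = 5.1e-06).

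Trim30b and Trim30c were low in untreated cells and rose the most of all members. Trim30b stood at 2.95 and 2.21 CPM in WT untreated, 1.96 and 2.49 in KO untreated, 42.1 and 50.1 in WT control, 1.78 and 2.27 in KO control, and 95.6 and 99.2 in KO Poly(I:C). The 17.3-fold difference in WT cells (4.12 on the log2 scale, SE 0.18, adjusted p = 4.0e-08) was the first of the family in size. Trim30c gave 5.96 and 7.06 CPM in WT untreated, 4.15 and 5.80 in KO untreated, 45.9 and 55.9 in WT control, 2.93 and 4.66 in KO control, and 118 and 154 in KO Poly(I:C). Its WT difference was 2.95 (SE 0.23, adjusted p = 2.2e-06), and the KO control libraries were the lowest pair, though they overlapped the KO untreated ones. The highest identity of the 250-base stretch with that of another paralogue read was 54.0% for Trim30b and 55.2% for Trim30c.

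Trim12a and Trim12c are mouse relatives of TRIM5, the protein that in primates attacks incoming retroviral capsids. Trim12c stood at 42.9 and 46.1 CPM in WT untreated, 39.5 and 46.7 in KO untreated, 118 and 127 in WT control, 43.9 and 53.9 in KO control, and 148 and 172 in KO Poly(I:C). Trim12a stood at 20.4 and 19.4, 16.3 and 19.6, 48.8 and 59.8, 18.6 and 22.9, and 84.3 and 88.0 CPM in the same groups. Both were higher in WT control by a like amount, 1.46 (SE 0.12) for Trim12c and 1.44 (SE 0.13) for Trim12a. Trim34a, the gene that follows Trim6 on the chromosome, stood at 30.4 and 31.8, 24.6 and 28.9, 84.7 and 102, 30.6 and 39.0, and 134 and 138 CPM, a WT difference of 1.58 (SE 0.13).

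The remaining cluster genes did not change in WT cells. Trim5 stood at 9.97 and 11.5 CPM in WT untreated, 10.3 and 13.2 in KO untreated, 10.1 and 10.2 in WT control, 9.03 and 12.2 in KO control, and 9.66 and 11.5 in KO Poly(I:C), so that all 10 libraries lay between 9.03 and 13.2 CPM. Its differences were -0.07 (SE 0.17, adjusted p = 0.73) in WT control and 0.00 (SE 0.17, adjusted p = 0.99) with Poly(I:C), next to a rise of Trim12c in both, although the upstream stretches of the pair share most of their letters. Trim6, which is known to build free ubiquitin chains in interferon signalling, stood at 4.73 and 6.03, 4.70 and 5.44, 4.85 and 5.63, 3.17 and 3.14, and 4.96 and 5.08 CPM. The KO control libraries were the lowest for Trim6, and its WT difference was -0.03 (SE 0.16, adjusted p = 0.87). Trim34b was near the limit of detection, with deposited values from 0 to 11. A read cannot always be placed among some of these genes. Of the 50-base words in the transcripts, 36.3% of those of Trim5 also occur in Trim12c or Trim12a, 33.0% of those of Trim12c and 10.4% of those of Trim12a occur in other genes, 39.8% of those of Trim34a and 56.8% of those of Trim34b are shared, and 7.49% and 5.98% of those of Trim30d and Trim30a. No source used here gives how the authors' counting divided such reads, and these genes are uncertain to that extent.

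**Figure D2:**
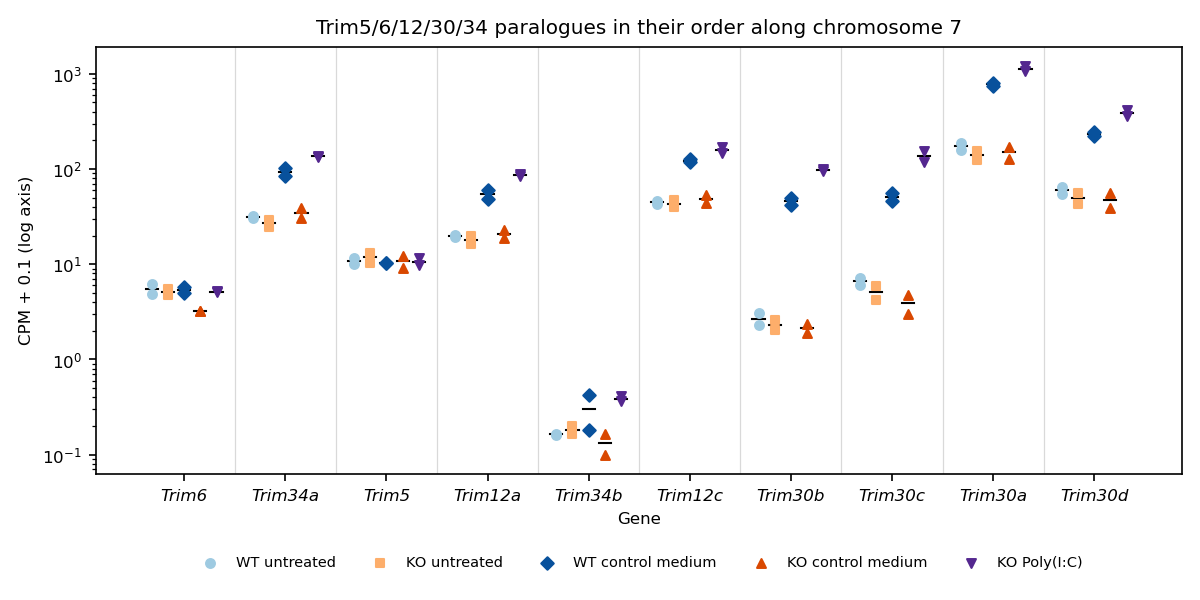
CPM + 0.1 on a log axis for the 10 paralogues in their order along chromosome 7, with 1 point per library and a bar at each group mean. Trim5 lies near 10 in all 10 libraries, while Trim30b climbs from about 2 in untreated and KO control cells to 42.1 or more in WT control and Poly(I:C) cells.

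Outside the cluster, Trim21, Trim25, Trim56, Trim13, Trim26, Trim14 and Trim36 rose by more than 1 on the log2 scale in WT cells. Trim21, the cytosolic receptor for antibody-coated virus, stood at 26.9 and 28.8 CPM in WT untreated, 25.6 and 27.4 in KO untreated, 123 and 141 in WT control, 36.0 and 38.7 in KO control, and 207 and 222 in KO Poly(I:C). No group overlapped another except the untreated ones, and the WT difference was 2.24 (SE 0.09, adjusted p = 2.3e-08). Trim25, which is known to modify the RNA sensor RIG-I and to work with the zinc finger antiviral protein, stood at 160 and 197, 144 and 165, 454 and 550, 135 and 162, and 770 and 835 CPM, a WT difference of 1.49 (SE 0.14, adjusted p = 5.6e-06). The 6 untreated and KO control libraries of Trim25 lay together below 200.

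Trim56, a ligase reported to act on cytosolic DNA sensing and on viral replication, stood at 42.0 and 52.9, 45.2 and 47.6, 138 and 159, 45.7 and 51.9, and 187 and 220 CPM, and rose by 1.65 (SE 0.13) in WT control. Trim13, an endoplasmic reticulum ligase, stood at 9.60 and 10.5 CPM in WT untreated, 10.4 and 10.7 in KO untreated, 60.0 and 62.3 in WT control, 12.3 and 11.4 in KO control, and 53.0 and 54.5 in KO Poly(I:C). It had the lowest adjusted p of the family (2.59, SE 0.09, adjusted p = 1.0e-08 in limma), and, unlike the genes above, its Poly(I:C) libraries lay below the WT control ones. Dleu2 overlaps Trim13 on the opposite strand and stood at 11.9 CPM in WT untreated and 21.0 in WT control, and 14.2% of the Trim13 words occur in another gene, so Trim13 is uncertain to that extent.

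Trim26, which was shown above with 2 ISRE-like matches, stood at 47.4 and 44.1, 41.7 and 42.3, 115 and 128, 51.8 and 54.9, and 173 and 177 CPM, and rose by 1.40 (SE 0.08). Trim14, which lacks a RING finger and acts as an adaptor at the mitochondrial protein MAVS, stood at 14.8 and 14.8, 13.5 and 12.1, 32.9 and 35.0, 16.8 and 18.2, and 40.6 and 43.2 CPM, and rose by 1.19 (SE 0.09). Nans, which overlaps Trim14 on the opposite strand, was lower in WT control than in WT untreated, at 34.7 against 70.4 CPM. Trim36, a microtubule-binding COS-box member known from sperm and from cell division, stood at 4.20 and 4.48, 5.29 and 5.09, 17.5 and 19.3, 9.53 and 7.67, and 17.7 and 18.7 CPM, and rose by 2.06 (SE 0.13, adjusted p = 4.3e-07). Its KO control libraries lay between the untreated and the WT control ones.

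Trim35 and Trim43b were the weakest of the calls upward. Trim35 stood at 101 and 93.3 CPM in WT untreated and 148 and 115 in WT control, a difference of 0.42 (SE 0.11, adjusted p = 0.0057), which turned to -0.11 with libraries scaled by totals alone. Trim43b, which passed the threshold only where it is high, had deposited values of 0 and 1 in WT untreated and 12 and 17 in WT control, and 47.7% of its words occur in other genes.

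The 12 members that fell in WT control were led by Trim37, Trim59 and Trim47. Trim37, a peroxisomal and centrosomal ligase, stood at 27.0 and 25.1 CPM in WT untreated, 25.3 and 27.2 in KO untreated, 7.22 and 6.19 in WT control, 22.3 and 19.2 in KO control, and 4.90 and 5.39 in KO Poly(I:C). The 2 WT control libraries lay below all untreated and KO control ones (-1.95, SE 0.12, adjusted p = 4.0e-07). Trim59, a membrane-anchored ligase, stood at 15.0 and 12.6, 17.5 and 14.9, 5.16 and 3.94, 17.7 and 12.8, and 3.02 and 2.95 CPM, with a WT difference of -1.58 (SE 0.19, adjusted p = 4.0e-05). Trim47, a PRY-SPRY ligase, stood at 15.8 and 13.1, 15.7 and 10.4, 6.49 and 5.57, 16.8 and 13.3, and 3.20 and 1.91 CPM, with a WT difference of -1.24 (SE 0.26, adjusted p = 0.0018). Trim47 overlaps Trim65 on the same strand and shares 6.58% of its words with other genes, and Trim65 was not called in WT control.

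Trim16, a member that lacks a RING finger, stood at 7.46 and 7.06, 7.97 and 7.58, 3.40 and 3.52, 7.65 and 6.93, and 2.50 and 1.88 CPM, with a WT difference of -1.05 (SE 0.16). Trim2, an NHL-repeat ligase best known in neurons, stood at 2.98 and 3.36, 3.62 and 2.85, 1.56 and 1.81, 4.88 and 4.89, and 1.12 and 1.49 CPM, with a WT difference of -0.88 (SE 0.20). Both genes were low, and in both the WT control and Poly(I:C) libraries lay below all others. Trim46, a COS-box protein of axonal microtubules, went from 4.20 and 5.31 CPM in WT untreated to 2.79 and 2.81 in WT control (-0.73, SE 0.22, adjusted p = 0.013). Krtcap2 overlaps Trim46 on the opposite strand at a higher level and was also lower, at 57.0 CPM in WT untreated and 33.8 in WT control. 

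Of the other members that fell, Trim32, an NHL-repeat ligase known from muscle, went from 14.0 and 14.6 CPM in WT untreated to 12.4 and 11.3 in WT control (-0.27, SE 0.10, adjusted p = 0.033). Trim68, a PRY-SPRY ligase, went from 3.61 and 2.60 to 2.06 and 1.87 CPM (-0.62, SE 0.23, adjusted p = 0.036). Trim7, which binds glycogenin, went from 0.470 and 0.528 to 0.195 and 0.207 CPM (-0.99, SE 0.32, adjusted p = 0.019 in limma). It reached the threshold in no WT control or Poly(I:C) library, so this call supports nothing. Trim9, a COS-box ligase of neurons that passed the threshold through untreated libraries, stood at 0.439 and 0.330 CPM in WT untreated and 0.111 and 0.118 in WT control. Trim7 and Trim9 lay below 0.6 CPM in every library, and deposited values of 15 and 16 for Trim7 and 14 and 10 for Trim9 stood behind the WT untreated levels.

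The TIF1 group of transcriptional cofactors is the bromodomain branch of the family. Trim28, the corepressor that KRAB zinc finger proteins bring to transposons and other silenced loci, stood at 104 and 97.9 CPM in WT untreated, 102 and 102 in KO untreated, 71.4 and 69.8 in WT control, 105 and 106 in KO control, and 68.1 and 63.1 in KO Poly(I:C). The replicates lay close together, and the WT difference of -0.52 (SE 0.07, adjusted p = 9.2e-05) was small in size. Trim24, a nuclear receptor cofactor, stood at 12.4 and 13.4, 15.0 and 14.0, 8.06 and 7.88, 13.8 and 13.0, and 7.34 and 7.21 CPM, with a WT difference of -0.69 (SE 0.10, adjusted p = 0.00022). Trim33, which acts with SMAD proteins, stood at 37.8 and 42.1, 43.2 and 47.7, 44.7 and 43.1, 48.9 and 52.0, and 35.8 and 39.3 CPM, and was not called in WT control (0.14, SE 0.09, adjusted p = 0.21).

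**Figure D3:**
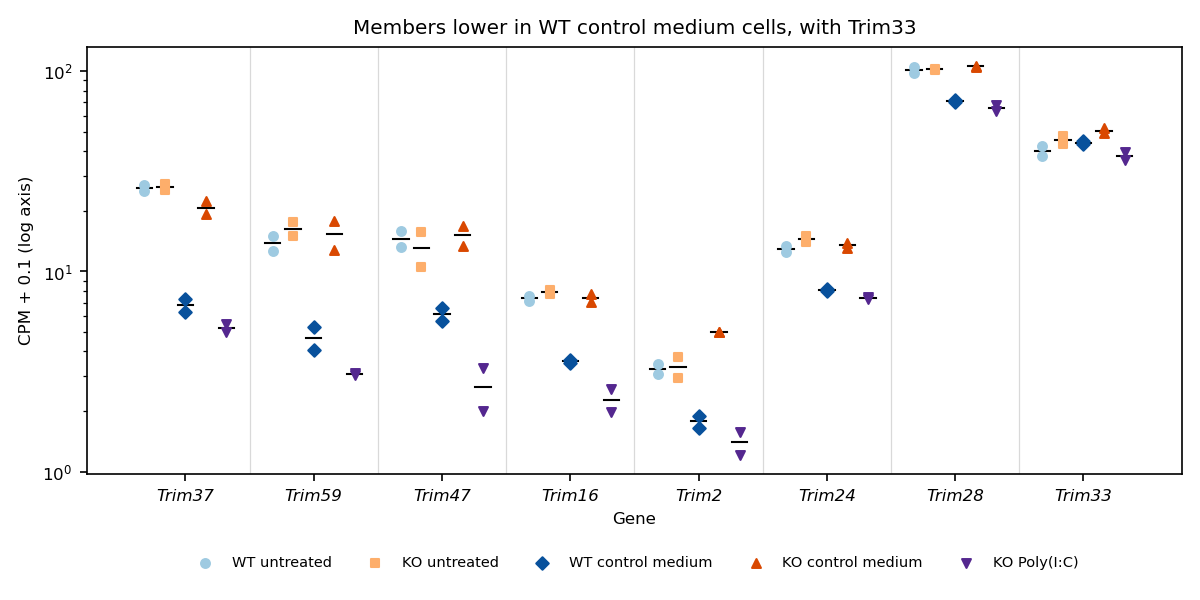
CPM + 0.1 on a log axis for 7 members that fell in WT control medium and for Trim33, with 1 point per library and a bar at each group mean. For Trim37, Trim59, Trim47, Trim16, Trim2, Trim24 and Trim28 the WT control and KO Poly(I:C) points lie below those of the 3 other groups, and for Trim33 the WT control points do not.

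Of the 15 members not called in WT control, 3 were the paralogues Trim5, Trim6 and Trim34b and 1 was Trim33. Others were Trim41, at 50.6 to 59.8 CPM in all 10 libraries, Trim11, at 13.2 to 19.2, and Trim39, at 7.52 to 11.5. Trim41 lies opposite Rack1, whose mean was 1090 to 1204 CPM in each group. Trim3, an NHL-repeat member, stood between 18.4 and 25.5 CPM and was called in neither medium comparison nor with Poly(I:C) against control. Trim8, a regulator of cytokine signalling that is known to bind SOCS proteins, stood at 49.5 and 55.1 CPM in WT untreated, 52.4 and 38.1 in KO untreated, 50.8 and 55.4 in WT control, 49.85 and 40.0 in KO control, and 37.4 and 32.2 in KO Poly(I:C). The Poly(I:C) libraries were the lowest for Trim8, with no call against KO control (-0.36, SE 0.16, adjusted p = 0.063).

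Trim27, Trim23, Trim44, Trim45, Trim62 and Trim65 were not called in WT control and fell with Poly(I:C) against KO control. Of these, Trim44, Trim62 and Trim65 were called higher in KO control than in KO untreated cells. With Poly(I:C) against KO untreated cells, Trim44 and Trim62 were not called. Trim23, which carries an ARF GTPase domain, stood at 12.04 and 16.98 CPM in WT untreated, 18.5 and 17.5 in KO untreated, 15.4 and 14.5 in WT control, 20.2 and 19.8 in KO control, and 12.2 and 13.2 in KO Poly(I:C). Its WT untreated pair was the widest apart. Trim27, a ligase of endosomal sorting, stood at 33.96 and 29.21, 29.6 and 31.2, 29.4 and 26.2, 31.2 and 28.2, and 25.1 and 21.7 CPM, and its Poly(I:C) difference of -0.34 (SE 0.11, adjusted p = 0.020) was lost without KO Poly(I:C) replicate 2 (adjusted p = 0.15). Trim44, whose RING finger is replaced by a zinc finger of deubiquitinating enzymes, stood at 73.2 and 68.9, 70.4 and 79.2, 80.2 and 73.9, 87.5 and 97.2, and 69.4 and 75.9 CPM. In Trim44 the KO control pair was the highest, and its Poly(I:C) call was lost in 3 other settings, among them unscaled values.

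Of the 28 calls in WT control, 22 held under every other setting in which the gene was tested. Those of Trim7, Trim9, Trim32, Trim35, Trim46 and Trim68 were each lost on leaving out at least 1 library or on another scaling. For Trim68 the adjusted p without WT untreated replicate 1 was 0.21, and for Trim32 without WT control replicate 2 it was 0.18 in limma.

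Without treatment the label made no difference that passed the test. Between KO and WT untreated cells 0 of 43 members were called in limma, where 0.167% of all genes were called in either direction (0.0835% higher and 0.0835% lower), and 2 members, Trim65 and Trim23, had an unadjusted p under 0.05. The smallest adjusted p was 0.53, for Trim65, at 9.79 and 9.66 CPM in KO and 7.90 and 8.31 in WT. Trim30a had a difference of -0.32 (SE 0.15, adjusted p = 0.60) and Trim30c one of -0.40 (SE 0.23, adjusted p = 0.67), both with all KO values below the WT ones.

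With the control medium fewer members were called in KO cells than in WT cells, 9 against 28. The same held for all genes, with 2624 called against 8680, so the lower count is not read as a trait of the family. Against KO untreated cells 7 rose and 2 fell of 43, or 16.3% and 4.65%, where 10.9% of all genes were called higher and 9.06% lower. Of the members that rose, Trim36 (0.71, SE 0.13), Trim21 (0.49, SE 0.09), Trim14 (0.45, SE 0.09) and Trim26 (0.34, SE 0.08) also rose in WT cells. The other 3 were called in KO cells alone, namely Trim62 (0.69, SE 0.22), Trim44 (0.30, SE 0.09), a RING-less member, and Trim65 (0.54, SE 0.11), a ligase of the RNA sensor MDA5. For none of these 3 was the difference between the genotypes' responses called (adjusted p = 0.12, 0.26 and 0.16 in limma). Trim65 stood at 9.79 and 9.66 CPM in KO untreated and 13.7 and 14.6 in KO control, and at 7.90 and 8.31 in WT untreated and 9.42 and 9.98 in WT control. The members that fell were Trim46 (-1.11, SE 0.22, adjusted p = 0.0066) and Trim6 (-0.67, SE 0.16, adjusted p = 0.018). Without KO control replicate 2 only Trim36 of the 9 stayed called, and without KO untreated replicate 2 only 3 did. The neutrophil marker sum was lower in both KO control libraries than in the KO untreated ones, as given above.

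The interaction tests whether the response to control medium differed between the labels, as the KO difference minus the WT difference. It was called for 23 of 43 members, 7 higher and 16 lower in KO, or 16.3% and 37.2%, where 22.3% of all genes were called higher and 23.6% lower. All 7 paralogues that rose in WT cells were among the lower ones, from -4.25 (SE 0.26, adjusted p = 1.4e-06) for Trim30b to -1.20 (SE 0.18) for Trim34a. Trim13 (-2.43, SE 0.13), Trim21 (-1.75, SE 0.13), Trim56 (-1.58, SE 0.18), Trim25 (-1.55, SE 0.19) and Trim36 (-1.35, SE 0.18) followed. In all, 11 members rose in WT, were not called in KO and had a lower response in KO by this test. Trim43b is among them, and its calls support nothing. The interaction contains the WT difference itself. The side on which members that rose or fell in WT cells lie is therefore not a separate observation. A further 4, Trim21, Trim26, Trim14 and Trim36, rose under both labels and less in KO. Trim35 rose in WT with no call for the interaction (-0.38, SE 0.15, adjusted p = 0.062).

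On the falling side, 7 members fell in WT, were not called in KO and had a higher response in KO, namely Trim37 (1.60, SE 0.17), Trim59 (1.48, SE 0.27), Trim47 (1.47, SE 0.37), Trim2 (1.46, SE 0.28), Trim16 (0.95, SE 0.22), Trim24 (0.58, SE 0.15) and Trim28 (0.56, SE 0.10). Trim6 was called lower (-0.63, SE 0.23, adjusted p = 0.044) through its fall in KO cells, and this call was lost under totals alone (adjusted p = 0.56). Scaling by totals alone gave 18 higher and 14 lower over the family, and moved the median of all genes to 0.52.

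**Figure D4:**
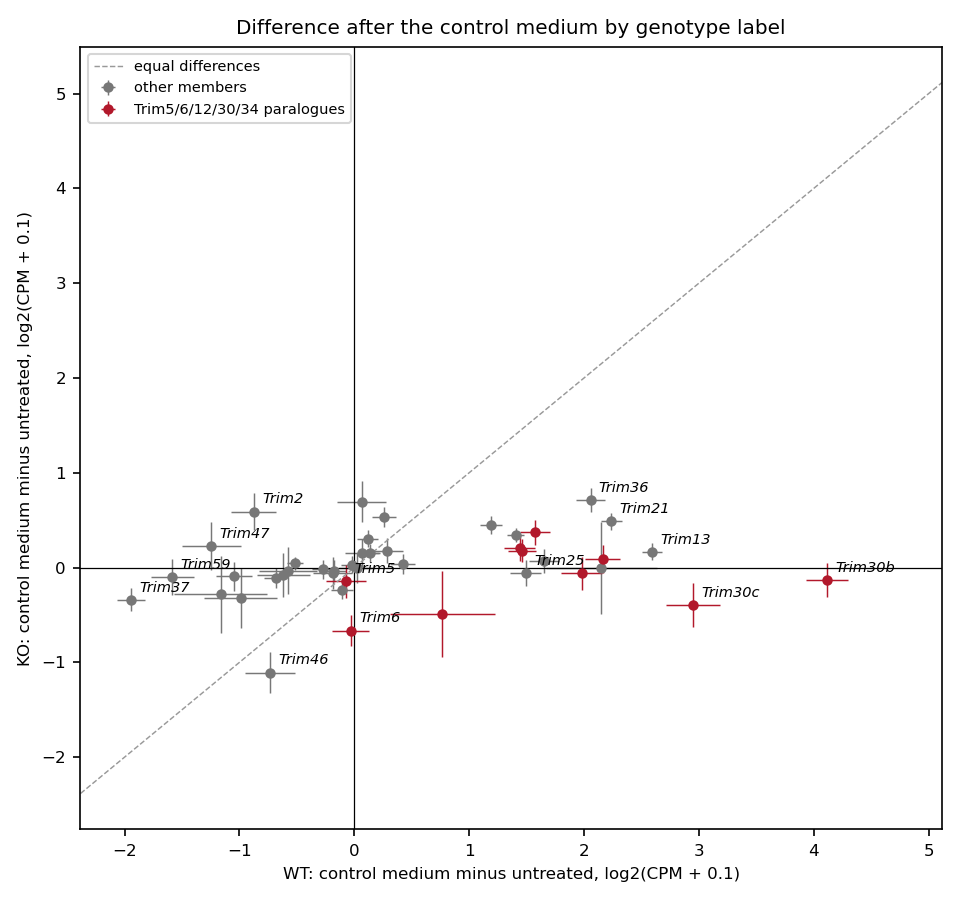
Difference of control medium minus untreated in WT cells (horizontal axis) and in KO cells (vertical axis) for the 43 members, on the log2(CPM + 0.1) scale with bars of 1 SE, and a dashed line of equal differences. Points spread from -1.95 to 4.12 in WT cells and from -1.11 to 0.71 in KO cells.

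Within the control medium, the KO libraries were lower than the WT ones for 18 members and higher for 12, or 41.9% and 27.9%, where 29.9% of all genes were called lower and 31.2% higher. This comparison shares the WT control libraries with the response in WT cells, so the order of genes is not a separate observation. The lowest were Trim30b (-4.45, SE 0.18), Trim30c (-3.74, SE 0.23), Trim30a (-2.38, SE 0.15), Trim13 (-2.36, SE 0.09) and Trim30d (-2.33, SE 0.18), and the highest Trim59 (1.72, SE 0.19), Trim37 (1.61, SE 0.12) and Trim2 (1.49, SE 0.20). Totals alone gave 21 higher and 15 lower, the median over all genes then being 0.50, and unscaled values gave 9 higher and 21 lower.

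The KO Poly(I:C) libraries were set against the KO control ones, from which they may also differ in time and medium. Against KO control cells 17 members rose, 18 fell and 8 were not called, or 39.5% and 41.9%, where 33.1% of all genes were called higher and 36.3% lower. Of the 10 paralogues 9 rose and 0 fell, with a median of 2.02, and Trim5 was the one not called. The 9 include Trim34b, whose call supports nothing, as it passed the threshold only where it is high. Set against KO untreated cells, 7 of the paralogues rose with Poly(I:C), 0 fell and 3 were not called, namely Trim5, Trim6 and Trim34b. Trim30b (5.53, SE 0.18) and Trim30c (5.15, SE 0.23) were 46.2-fold and 35.6-fold higher, followed by Trim30d (3.05, SE 0.18), Trim30a (2.92, SE 0.15), Trim21 (2.52, SE 0.09) and Trim25 (2.44, SE 0.14). Trim6 rose by 0.65 (SE 0.16, adjusted p = 0.0045) from the low KO control level to that of untreated cells, a difference of -0.06 under totals alone. Trim34b had deposited values of 2 and 0 in KO control and 9 and 11 with Poly(I:C).

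The members that fell with Poly(I:C) were led by Trim47 (-2.55, SE 0.26, adjusted p = 1.1e-05), Trim59 (-2.30, SE 0.19), Trim37 (-1.99, SE 0.12), Trim2 (-1.84, SE 0.20) and Trim16 (-1.70, SE 0.16). Trim9, called lower too, had deposited values of 9 and 4 in KO control and 0 and 2 with Poly(I:C), and carries the limit given above. Trim7, also called lower, had 12 and 13 in KO control and 3 and 8 with Poly(I:C), and carries the same limit. All 3 TIF1 members fell, Trim24 by 0.87, Trim28 by 0.69 and Trim33 by 0.43 on the log2 scale, as did all 3 members with an ARF, MATH or filamin domain, Trim23, Trim37 and Trim45. The call of Trim33 was lost on unscaled values. Of the 35 calls, 26 held under every other setting in which the gene was tested, and totals alone gave 15 higher and 24 lower, the median over all genes then being -0.76.

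The WT control response and the Poly(I:C) response of KO cells share no library. Of the 16 members that rose in WT control and the 17 that rose with Poly(I:C), 15 were the same, or 93.8% of the former and 88.2% of the latter, and Trim43b on one side and Trim6 and Trim34b on the other were the exceptions. Of the 12 and 18 that fell, 11 were shared, or 91.7% and 61.1%, with Trim46 the exception in WT control. Across the 43 members the differences correlated at a Pearson r of 0.94 and a Spearman rho of 0.89, and across all 13171 genes at 0.88 and 0.84. The share of calls common to both responses was not counted over all genes. The counts of shared members are therefore not read as a trait of the family. These are descriptions across genes, which are not independent replicates. Set against KO untreated cells, with which the comparison above shares the Poly(I:C) libraries, 15 members were higher and 17 lower with Poly(I:C), or 34.9% and 39.5%, where 35.0% of all genes were called higher and 36.9% lower. Totals alone gave 14 higher and 26 lower there, and the median over all genes was then -0.77.

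**Figure D5:**
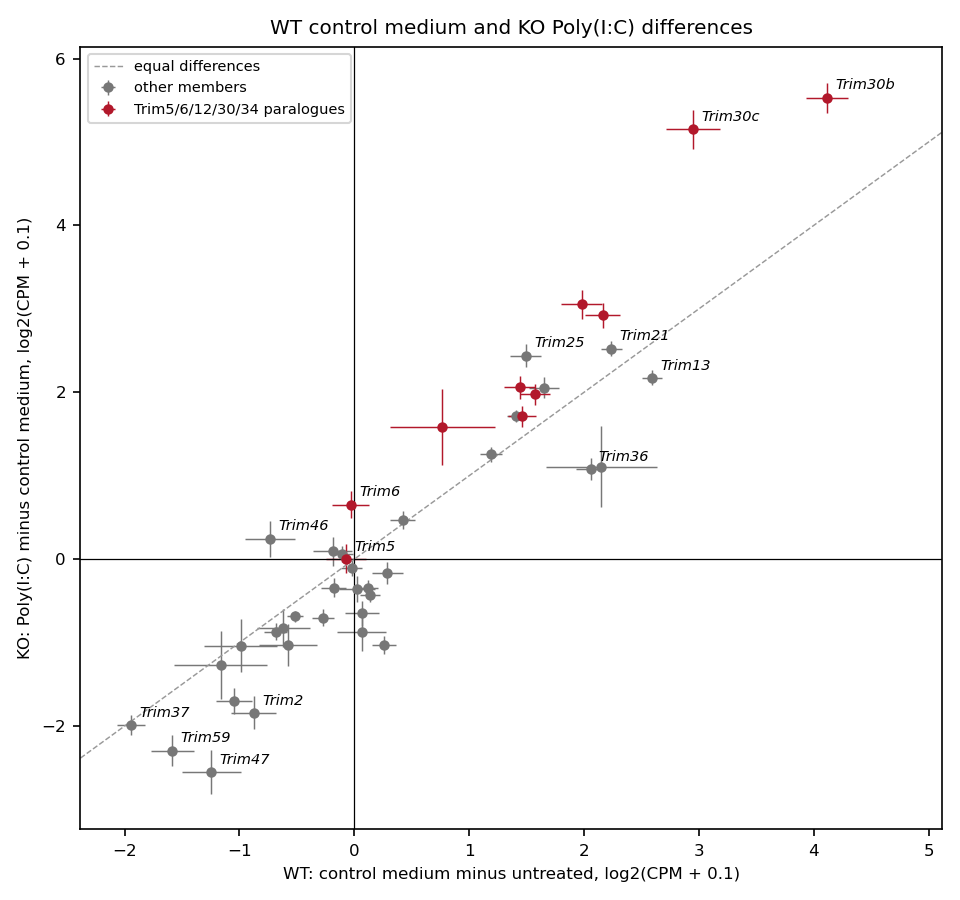
Difference of WT control medium minus WT untreated (horizontal axis) and of KO Poly(I:C) minus KO control medium (vertical axis) for the 43 members on the log2(CPM + 0.1) scale, with bars of 1 SE. The paralogues are red, the dashed line marks equal differences, and Trim30c and Trim30b lie farthest above it at 5.15 and 5.53.

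Divided by the length of their exons in GENCODE M21, the mean levels put Trim30a first and Trim25 second in all 5 groups. The second place was not clear in KO cells without Poly(I:C), where Trim28 lay within the SD of Trim25. In KO control they stood at 25.8 ± 3.27 (Trim25) and 25.4 ± 0.0302 CPM per kb (Trim28), and in KO untreated at 26.8 ± 2.67 and 24.6 ± 0.0840. In WT untreated cells Trim30a stood at 42.3 ± 5.10 CPM per kb (SD, n = 2), Trim25 at 31.0 ± 4.60, Trim28 at 24.3 ± 1.12, Trim35 at 21.1 ± 1.19 and Trim30d at 15.8 ± 1.75. Each neighbour in this order of 5 differed from the next by more than the SD of either. In WT control Trim30a reached 189 and Trim25 87.2 CPM per kb, and in KO Poly(I:C) 274 and 139. Trim28 went from the third place in WT untreated to place 11 in WT control, with 17.0 CPM per kb. Trim30c went from place 22 in WT untreated to place 8 in WT control and place 4 with Poly(I:C), and Trim30b from 38 to 18 and 15. The 43 members together made up 1267 and 1358 CPM in WT untreated, 1196 and 1279 in KO untreated, 2870 and 3122 in WT control, 1266 and 1361 in KO control, and 4000 and 4379 in KO Poly(I:C). The WT control and Poly(I:C) sums thus lay above all others. Such a sum is weighted to the most abundant members and does not describe the family as a whole. From WT untreated to WT control, Trim30a alone went from 174 to 776 CPM and Trim25 from 178 to 502. In that comparison 12 of the 43 members fell, and the median difference of the members was 0.07.

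Ubiquitin ligases of this family work with partners, which were read from lists. In WT control 32.8% of all genes were called higher and 33.1% lower, and with Poly(I:C) against KO control 33.1% and 36.3%. In KO control 10.9% were called higher and 9.06% lower, and for the interaction 22.3% and 23.6%. These are the shares to read beside the counts of each list. The lists were chosen with earlier results of these data known, so their counts are descriptions and not a test of any list. Of 5 family members that carry other names 3 were tested and all 3 rose in WT control, namely Pml, which builds nuclear bodies (1.61, SE 0.11), Mid1, a microtubule-bound ligase (1.71, SE 0.57, adjusted p = 0.023), and Mefv, the inflammasome protein pyrin (2.57, SE 0.12). Mid2 and Rnf207 were not tested. Of the 24 ubiquitin E1 and E2 enzymes, 19 rose and 2 fell in WT control, with a median of 0.55 against -0.01 for all genes, and 19 rose and 1 fell with Poly(I:C), with a median of 0.66. Ube2e2 (1.65, SE 0.20), Ube2d3 (1.43, SE 0.17) and Ube2e1 (1.38, SE 0.10), E2 enzymes of the classes that many RING ligases use, had the largest differences in WT control. In KO control 2 of the 24 rose and 1 fell, and the interaction was lower in KO for 17.

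All 5 genes of ISG15 conjugation, a ubiquitin-like pathway, rose in WT control, with a median of 3.48. Isg15, the modifier, rose by 4.88 (SE 0.18), Usp18, its protease, by 4.58 (SE 0.17), Herc6, its ligase, by 3.48 (SE 0.13), Ube2l6, its E2, by 3.30 (SE 0.12) and Uba7, its E1, by 2.12 (SE 0.09), and 3 of the 5 rose in KO control. In the pathway of RIG-I, a Trim25 target, 10 of 12 genes rose and 1 fell in WT control, with a median of 1.30. Irf7, a transcription factor of interferon genes, rose by 4.34 (SE 0.20), Ifih1 (MDA5) by 3.33 (SE 0.16) and Ddx58 (RIG-I) by 2.81 (SE 0.12), and Mavs, the adaptor that both sensors use, fell (-1.03, SE 0.07). All 10 interferon signalling genes rose in WT control and with Poly(I:C). Among them was Ifnb1, which encodes interferon beta, from 0.0495 to 1.19 CPM in WT cells and from 0.0330 to 31.5 CPM with Poly(I:C). Its level in WT untreated and KO control cells was too low to reach the threshold for testing. Passing it tied Ifnb1 to its rise, so its calls support nothing. In KO control 1 of the 10 rose, and the interaction was lower in KO for all 10.

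Among 9 partners of Trim28 in gene silencing 6 fell and 3 rose in WT control, with a median of -1.02, where 33.1% of all genes fell and 32.8% rose. Cbx3 (-1.59, SE 0.13) and Cbx5 (-1.37, SE 0.12) encode heterochromatin proteins, and Atf7ip (-1.32, SE 0.08) the partner of the histone methyltransferase Setdb1, which also fell (-1.02, SE 0.10). Morc3, Resf1 and Chd4 rose. The 5 genes read for antibody handling with Trim21 all rose in WT control, the antibody receptors Fcgr1 (2.19, SE 0.11) and Fcgr4 (1.69, SE 0.13) by more than the unfolding complex of Nploc4 (0.66, SE 0.07), Vcp (0.57, SE 0.08) and Ufd1 (0.54, SE 0.08). Between KO and WT untreated cells 0 genes of any of these lists were called in limma.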

How the data were processed

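RNA from 10 libraries of mouse bone marrow derived macrophages (5 groups of 2, taken from the sample titles) had been made into sequencing libraries with a stranded mRNA kit, per the labels' protocols. Per the submitters' processing notes, RSEM 1.2.12, STAR 2.4.0d, DESeq2 and Trim Galore 0.2.8 were used, in roles the notes leave out, and no source used here names the genome build or the counting rules. The authors deposited 1 table of whole numbers per Ensembl gene and 1 of regularised log2 values (rlog). The whole numbers are a signal and not raw reads: the deposited values skip or repeat whole numbers as reads do when multiplied by 1 factor per library and rounded. A count model was therefore not used, and the depth in reads is not known for each library. Of 45318 identifiers, 44671 matched a GENCODE M21 symbol (GRCm38), and the rest held at most 0.114% of a library's total.

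Values were divided by the library total times a factor from the trimmed mean of M values (TMM, 30% of M and 5% of A trimmed). Genes at 10 or more in at least 2 libraries were tested (13171 of 20687 above 0) with limma 3.58.1 in R 4.3.3, with a trend, on log2(CPM + 0.1). One model with a coefficient per group used all 10 libraries (5 residual and 4.81 prior degrees of freedom), for 7 comparisons, each adjusted by Benjamini-Hochberg over all genes. The added 0.1 understates changes of low genes, and the script was tested on simulated data. Members, subfamilies (by known domains), partner lists and marker lists were chosen with earlier results of these data known. Named were the chromosome 7 paralogues, Trim25, Trim21 and the TIF1 members, the members with the most extreme calls in each comparison, any other member where a count turned on it, and up to 3 genes of a longer list. Genes named beyond this rule (Trim65 and Trim23 without treatment, Ifnb1, Setdb1, Morc3, Resf1, Chd4 and the genes overlapping members) were chosen after their values were seen. Promoters are RefSeq sequences of GRCm38.p6, and stretches of 250 bases were aligned end to end. Alternatives were other scalings, filters and pseudocounts, the rlog table, fits of only the groups compared, a replicate block and leaving out each library.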

Additional observations from a re-analysis of the deposited data

Results flagged for a closer look

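The response to control medium differed between the labels for 23 members, by the interaction term in limma (KO difference minus WT difference, log2(CPM + 0.1), adjusted over 13171 genes, where 22.3% of all genes passed as higher in KO and 23.6% as lower). Among the chromosome 7 paralogues the values were -4.25 for Trim30b, -3.34 for Trim30c, -2.07 for Trim30a, -2.04 for Trim30d, -1.28 for Trim12c, -1.24 for Trim12a, -1.20 for Trim34a and -0.63 for Trim6. Among the other members lower in KO, the values were -2.43 for Trim13, -2.15 for Trim43b, -1.75 for Trim21, -1.58 for Trim56, -1.55 for Trim25, -1.35 for Trim36, -1.06 for Trim26 and -0.74 for Trim14. The members higher in KO were Trim37 at 1.60, Trim59 at 1.48, Trim47 at 1.47, Trim2 at 1.46, Trim16 at 0.95, Trim24 at 0.58 and Trim28 at 0.56. Of these 23, 19 passed in every other setting in which they were tested. Trim6 and Trim43b were lost on leaving out single libraries, Trim14 under scaling by totals alone and Trim24 on unscaled values. Trim43b passed the threshold for testing only through groups in which it is high. With groups of 2 libraries no single library was examined as standing apart.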

How the results depend on the processing

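Of 157 calls of members over the 7 comparisons, 118 passed in the same direction in every other setting in which the gene was tested, and 39 did not in at least 1. Of these, 5 changed sign, all with scaling by totals alone: Trim35 at 0.11 (KO against WT control), -0.11 (WT control), -0.26 (Poly(I:C) against KO control) and -0.26 (Poly(I:C) against KO untreated), and Trim6 at -0.060 (Poly(I:C) against KO control). Unscaled values lost 14 calls, totals alone 6 more, median-of-ratios scaling, rlog values and no filter 5 each, fits of only the groups compared 4, a pseudocount of 1 lost 1, and a minimum of 50 lost 0 of 147 testable. The causes were not tested. Leaving out each library in turn gave 0 to 0 called members for KO against WT untreated, 26 to 30 for KO against WT control, 24 to 26 for WT control, 1 to 7 for KO control, 31 to 35 and 30 to 33 for Poly(I:C) against KO control and KO untreated, and 21 to 24 for the interaction. A left-out library leaves its group with 1, which is then assumed to vary like the others. Of the 9 calls in KO control, 1 was left without KO control replicate 2 and 3 without KO untreated replicate 2.

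With the replicate number as a block the counts were 0, 32, 29, 11, 36, 33 and 24 for KO against WT untreated, KO against WT control, WT control, KO control, Poly(I:C) against KO control and KO untreated, and the interaction, and no call was lost. The labels name no shared batch behind the numbers. The replicate differences of 2 groups correlated at 0.172 to 0.315 within a genotype label and at 0.0126 to 0.110 across labels, so pairing by number was not shown for all groups and is a hint within a label. The depth in reads is unknown, which limits what can be said of Trim7, Trim9, Trim34b and Trim43b, all below 1 CPM.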

Other observations

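Of the TRIM genes below the threshold, Trim29 had deposited values of 9 and 2 in WT untreated, 8 and 7 in KO untreated, 1 and 1 in WT control, 2 and 4 in KO control, and 0 and 0 in KO Poly(I:C). Trim17 had its highest values, 6 and 10, in the Poly(I:C) libraries, and Trim66, the remaining TIF1-type gene, had 9 and 10 in KO control and 2 to 7 elsewhere. None of them was tested. Gm16464, a gene that overlaps Trim30d on the same strand, had means of 0.175 CPM in WT untreated, 2.39 in WT control, 0.472 in KO control and 3.73 in KO Poly(I:C).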
